A study of Mus musculus with 12 samples.

Results

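The nuclear genes of the mitochondrial respiratory chain and ATP synthase were examined in newborn mouse hearts for H3K27ac, the acetylation of histone H3 that marks promoters and enhancers in use. Members were the protein-coding genes on chromosomes 1 to 19 of the RefSeq gene table whose symbols begin with Ndufa, Ndufb, Ndufc, Ndufs, Ndufv, Uqcr, Cox4i, Cox5, Cox6, Cox7, Cox8 or Atp5, or equal Sdha, Sdhb, Sdhc, Sdhd, Cyc1 or Cycs. They numbered 95 of 21887 protein-coding genes. There were 37 genes of complex I, 8 complex I assembly factors (Ndufaf1 to Ndufaf8, whose symbols share the prefix), 4 of complex II, 10 of complex III with cytochrome c, 19 of complex IV and 17 of ATP synthase. Ndufa4 and Ndufa4l2 were placed with complex IV, where their products are now known to act. The symbols alone chose the members, and no measured value did.

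The series compares whole hearts of newborns (P0) with a cardiomyocyte-specific deletion of both retinoid X receptor genes, Rxra and Rxrb (edKO, n = 3 hearts, numbered 1, 3 and 6), with hearts of wild-type newborns (WT, n = 3 hearts, numbered 1, 3 and 4). Each heart was a replicate of its own, per the labels, and the labels name neither the Cre driver nor any floxed allele in the WT hearts. Fibroblasts, endothelial cells and the other non-cardiomyocytes of an edKO heart keep both genes. In whole hearts, fewer marked cells and less mark per cell cannot be told apart. The series deals with how heart metabolism matures around birth, and the question here is whether the mark at respiratory genes depends on these receptors in cardiomyocytes.

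The respiratory chain passes electrons from NADH and succinate to oxygen and pumps protons across the inner mitochondrial membrane, and ATP synthase uses the return of those protons to make ATP. Complex I takes electrons from NADH and complex II from succinate, complex III hands them to cytochrome c, and complex IV passes them to oxygen. Most subunits are encoded in the nucleus and are made in nearly every cell. The heart draws most of its ATP from this pathway after birth, and a few complex IV subunits have muscle isoforms that replace the widely expressed ones as the heart matures. Nuclear respiratory factor 1 (NRF1), the ETS factor GABP, YY1 and the oestrogen-related receptors (ERR) are the factors best known for binding promoters of these genes, whereas RXR pairs with PPAR on fatty acid oxidation genes.

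One list of called H3K27ac regions exists per heart, with no read counts, so the measurement was the length in base pairs (bp) that called regions cover from 10 kb before a gene's body to 10 kb past it (its locus). The lists held 47972, 48275 and 67708 distinct regions in edKO 1, 3 and 6 and 57977, 62883 and 66329 in WT 1, 3 and 4. They covered 66.6, 47.9 and 62.6 Mb in the edKO hearts and 67.4, 68.3 and 59.1 Mb in the WT hearts, so edKO 3 had the least called sequence. Read depth per heart is unknown, and a locus without a region is one where none was called. All 12 cardiomyocyte marker genes had called regions in all 6 hearts, as had all 8 fibroblast and all 8 endothelial markers. Only 2 of 7 leukocyte and 1 of 6 erythroid markers did, and 3 of 7 neural and hepatocyte markers, which should lack the mark in heart. The lists that follow were described by counts and medians beside those of all loci, with no test of a list.

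The mark was nearly universal at these genes. A called region touched an end of the gene (1 kb on each side of either end) in all 6 hearts at 88 of 95 members (92.6%), against 52.0% of all protein-coding genes. Any region within 10 kb was called in all 6 hearts at 92 members (96.8%), against 64.3% of all genes. By that measure the related lists described below were marked about as fully. The counts were 40 of 40 other assembly factors, 20 of 20 fatty acid oxidation genes and 24 of 25 regulators. They were 17 of 17 for genes of the tricarboxylic acid cycle and the pyruvate dehydrogenase complex. Start sites with their strand were available from RefSeq for 76 members, and a region covered or lay within 250 bp of the start site in all 6 hearts at 73 of them (96.1%), against 52.4% of 17492 genes. The 3 members without any called base in any heart were Ndufb4b, a complex I gene copy, Cox7b2, and Cox8c, a complex IV isoform gene known mainly from testis.

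The other members without a gene-end region in every heart were few. Cox6b2, the testis-type isoform of Cox6b1, had a gene-end region in WT 3 and in no other heart. Ndufb4c, named for this count, had none in any heart, and its covered length all lay inside the neighbouring gene Mroh5. Cox7a2 and Cox5a have RefSeq extents that reach beyond their main start sites, and both had a region over the annotated start site in all 6 hearts. At Cox7a2 that region was 2284, 1809 and 1630 bp wide in the edKO hearts and 2251, 2337 and 2100 bp in the WT hearts.

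The regions at start sites were short blocks around the start of transcription. Their median width over the 73 members was 2133, 1563 and 1818 bp in edKO 1, 3 and 6 and 1806, 1936 and 1750 bp in WT 1, 3 and 4. For 9099 other genes marked at the start site in all 6 hearts it was 1886, 1404 and 1653 bp in the edKO hearts and 1684, 1718 and 1504 bp in the WT hearts. In each of the 6 hearts the members' blocks were thus wider in the median by a small margin, and the hearts of the genotypes overlapped. The members' blocks reached farther into the gene (medians of 1292, 1007 and 1066 bp in the edKO hearts and 1125, 1104 and 1064 bp in the WT hearts) than upstream of it (870, 649 and 716 bp in the edKO hearts and 737, 758 and 685 bp in the WT hearts). Ranked by the authors' q-value within each heart's own list, they stood at median percentiles of 95.1, 96.3 and 97.0 in the edKO hearts and 97.8, 97.9 and 97.2 in the WT hearts. The other marked genes stood at 86.9, 86.6 and 91.4 in the edKO hearts and 89.0, 90.4 and 90.9 in the WT hearts.

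**Figure D1:**
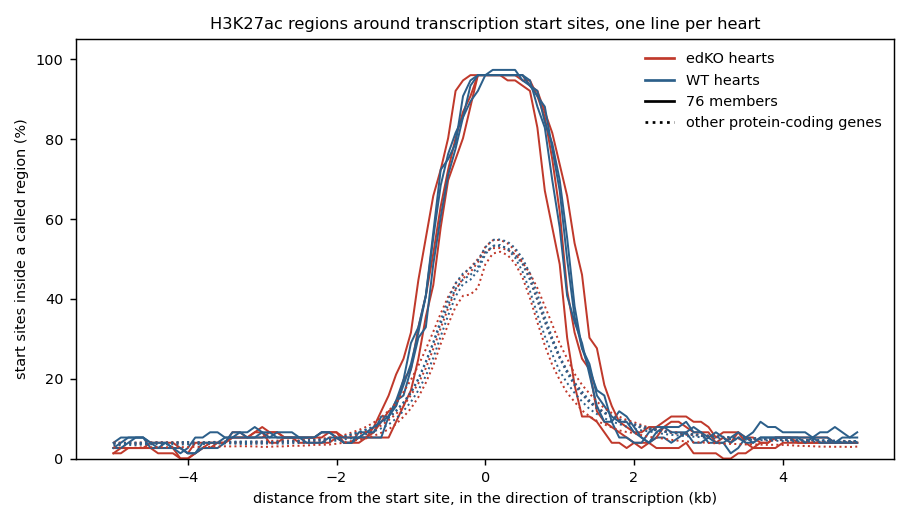
Percent of start sites that lie inside a called H3K27ac region at each distance from the start site, in kb in the direction of transcription, with edKO hearts in red and WT hearts in blue, 76 members as solid lines and 17416 other protein-coding genes as dotted lines. At the start site itself 96.1% of members are covered in every heart, and 1 kb downstream the 6 hearts spread between 48.7% (edKO 3) and 73.7% (edKO 1), with the WT hearts inside that range.

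The promoters of the isoform pairs of complex IV show how different the sequences under these regions are. Heart and skeletal muscle carry Cox7a1 and Cox8b as muscle isoforms of Cox7a2 and Cox8a, and both members of each pair were marked at the start site in all 6 hearts. The 200 bases before the start site are given below 5′ to 3′ on the gene's strand, from RefSeq on GRCm38.p6 (the build also called mm10). Capitals mark matches to the short NRF1, ETS, YY1 or ERR motifs defined further on, and none of these 4 stretches holds one. Cox8a has an ETS match in its 300-base promoter window that lies outside the stretch shown. The 4 stretches lie at chr7:30183971-30184170 (plus strand), chr9:79759854-79760053 (minus), chr7:140900447-140900646 (minus) and chr19:7217617-7217816 (minus).
Cox7a1: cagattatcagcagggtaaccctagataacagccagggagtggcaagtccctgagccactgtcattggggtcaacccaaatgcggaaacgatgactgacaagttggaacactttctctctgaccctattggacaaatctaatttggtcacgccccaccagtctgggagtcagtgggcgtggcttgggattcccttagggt
Cox7a2: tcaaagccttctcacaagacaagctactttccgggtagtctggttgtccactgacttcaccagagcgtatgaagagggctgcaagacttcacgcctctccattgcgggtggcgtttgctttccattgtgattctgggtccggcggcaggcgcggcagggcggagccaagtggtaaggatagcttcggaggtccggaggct
Cox8b: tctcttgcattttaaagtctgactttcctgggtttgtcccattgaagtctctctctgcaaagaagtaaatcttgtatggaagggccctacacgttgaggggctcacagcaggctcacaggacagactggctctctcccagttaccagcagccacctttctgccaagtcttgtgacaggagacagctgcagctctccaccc
Cox8a: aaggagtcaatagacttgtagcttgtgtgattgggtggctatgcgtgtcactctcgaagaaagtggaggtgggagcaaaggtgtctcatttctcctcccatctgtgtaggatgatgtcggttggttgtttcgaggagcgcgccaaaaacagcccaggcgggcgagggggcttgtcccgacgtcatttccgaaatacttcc

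In the full promoter window of 300 bases (250 before the start site and 50 after it), the ratio of observed to expected CpG pairs was 0.333 at Cox7a1 and 0.115 at Cox8b, against 0.833 at Cox7a2 and 0.842 at Cox8a. In these pairs the muscle isoforms thus had CpG-poor promoters and the widely expressed ones CpG-rich promoters. Cox6a2, the other muscle isoform described below, had no promoter among the 76 available. Over all 76 members the median ratio was 0.831, against 0.585 over all 17492 genes and 0.797 over the 9172 genes with a region at the start site in all 6 hearts. The median GC content was 58.5% in the members, 56.7% in all genes and 62.0% in the marked genes.

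Motifs of the known respiratory chain factors were more frequent in the members' promoters than in all promoters, a description with no test. The letters searched, on both strands, were CCGGAAG for ETS factors such as GABP, GCATGCGC for NRF1, AAGATGGC for YY1 and TCAAGGTCA for ERR. The ETS letters stood in 19 of 76 member promoters (25%), against 12.1% of all promoters and 20.1% of those marked in all 6 hearts. The NRF1 letters stood in 13 (17.1%), against 3.64% of all and 6.04% of marked promoters. The YY1 letters stood in 11 (14.5%), against 3.25% of all and 5.05% of marked promoters. At least 1 of these 3 was present in 36 members (47.4%), against 17.4% of all and 28.5% of marked promoters.

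ERR letters were found in 2 members, Sdhd and Atp5g3 (2.63%; the second was named after the search), against 0.309% of all and 0.196% of marked promoters. A direct repeat of AGGTCA with 1 base between the copies (DR1), the element on which RXR pairs with PPAR, was found in 0 of 76 members, against 0.0572% of all and 0.0327% of marked promoters, so that the exact repeat is rare everywhere. The letters CCAAT, bound by NFY, stood in 43.4% of members and 38.8% of all promoters. The letters GGGCGG, bound by SP1, stood in 44.7% of members, 46.9% of all and 68.9% of marked promoters. A match says that the letters are present, not that a factor binds there.

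The next sequences are shown because they hold the motifs named above, in capitals. Cox6a1, the widely expressed isoform of a complex IV subunit, has 2 overlapping NRF1 matches, since the NRF1 letters can be read again on the other strand, and an ETS match on the opposite strand. Atp5j, which encodes coupling factor 6 in the stalk of ATP synthase, has a YY1 and an ETS match, and Sdhb, the iron-sulphur subunit of complex II, has an NRF1 match. They lie at chr5:115348959-115349158 (minus strand), chr16:84834977-84835176 (minus) and chr4:140961071-140961270 (plus).
Cox6a1: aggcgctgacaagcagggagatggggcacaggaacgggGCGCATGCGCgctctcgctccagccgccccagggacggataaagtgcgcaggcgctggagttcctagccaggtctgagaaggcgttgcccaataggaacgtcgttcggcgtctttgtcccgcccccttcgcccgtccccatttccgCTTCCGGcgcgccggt
Atp5j: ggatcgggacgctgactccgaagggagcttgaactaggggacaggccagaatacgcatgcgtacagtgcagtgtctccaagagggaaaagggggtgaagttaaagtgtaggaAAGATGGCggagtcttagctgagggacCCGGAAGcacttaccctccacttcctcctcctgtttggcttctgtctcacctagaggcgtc
Sdhb: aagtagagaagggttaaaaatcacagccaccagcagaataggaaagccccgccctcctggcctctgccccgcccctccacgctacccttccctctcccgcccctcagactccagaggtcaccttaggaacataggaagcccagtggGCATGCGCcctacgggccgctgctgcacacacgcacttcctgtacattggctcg

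The covered length of the members did not differ between the genotypes past the threshold at any locus. In limma on log2(bp + 200), centred per heart, over all 14317 loci with a mean of at least 500 bp, 0 of 91 tested members had a Benjamini-Hochberg adjusted p under 0.05 in either direction. Over all loci, 0.105% were called lower in edKO hearts (15 loci) and 0% higher, and beside that background a count of 0 among 91 is not a result about the members. The 15 calls themselves numbered between 0 and 9 when a single heart was left out, with 8, 4 and 9 calls on leaving out edKO 1, 3 and 6 and 3, 0 and 1 on leaving out WT 1, 3 and 4. At an unadjusted p under 0.05, 3 members were lower and 1 was higher in edKO hearts, and 4.63% of all loci were lower and 1.98% higher at that p. The 4 members that were not tested are Ndufb4b, Cox7b2 and Cox8c, with 0 bp, and Cox6b2, under the minimum at 368, 148 and 230 bp in the edKO hearts and 559, 819 and 610 bp in the WT hearts.

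The members moved little. The median log2 difference (edKO minus WT) was 0.02 over the 91 members and 0.03 over all loci. It lay within 0.25 on either side of 0 at 84 members (92.3%), against 81.2% of all loci, and 37 members (40.7%) were below 0, against 41.6% of all loci. The differences ran from -0.84 at Ndufa3 to 0.26 at Ndufs5, with standard errors between 0.09 and 0.27 (median 0.12, against 0.14 over all loci). The smallest difference called at any of the 15 loci was -0.90, so no difference the size of most members' estimates was called at any locus with 3 hearts a genotype. After centring, the 3 edKO hearts lay below the 3 WT hearts at 4 members (Ndufa3, Ndufb1, Ndufb10 and Ndufs4), and 5.76% of all loci did so. They lay above the WT hearts at 9 members (Ndufb4, Ndufb6, Ndufs5, Ndufs6, Cyc1, Uqcr10, Cox5b, Cox7a2l and Ndufa4), and 7.11% of all loci did so.

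Fatty acid oxidation genes give the scale of what these hearts do show. Of 20 such genes, 3 were called lower in edKO hearts (Acsl1, which activates fatty acids, Hadha, the alpha subunit of the trifunctional protein, and Decr1, a dienoyl-CoA reductase), 19 were below 0 and the median log2 difference was -0.44. That fall was already known from these data and is given for scale. Cardiomyocyte markers had a median of -0.08, fibroblast markers 0.15 and endothelial markers 0.12 on the same scale. Smooth muscle and pericyte markers had 0.09 and epicardial markers 0.15. The 4 tested neural and hepatocyte markers had -0.15, below the cardiomyocyte median. Leukocyte and erythroid markers had 0.05 and -0.03, over 2 and 1 tested genes. The part of cell composition in the members' values was not tested.

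**Figure D2:**
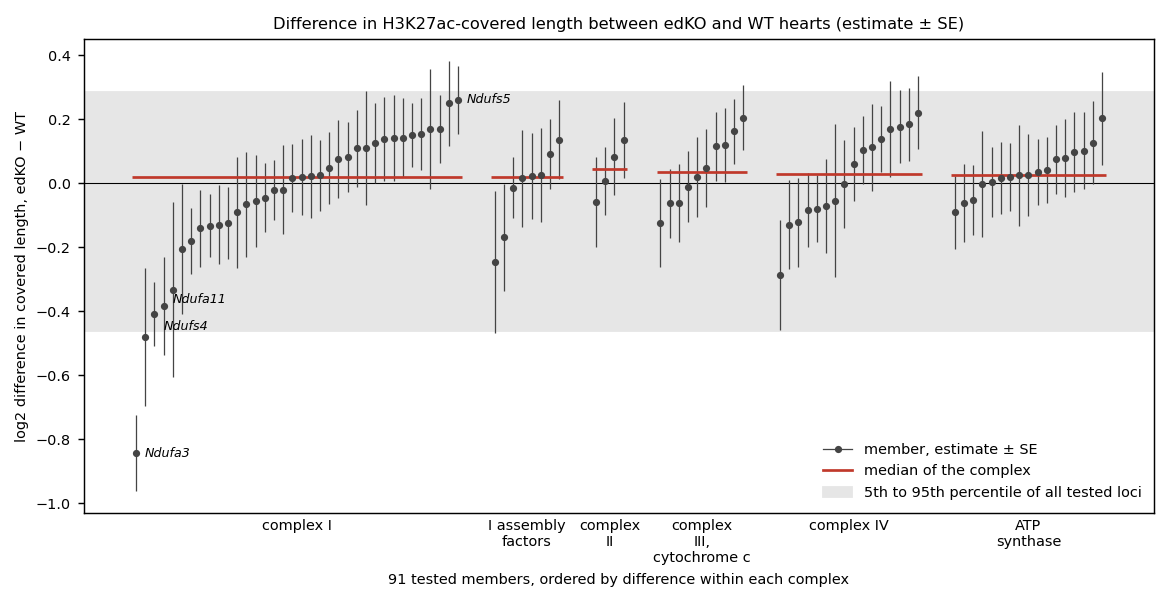
Log2 difference in H3K27ac-covered length (edKO minus WT) with its standard error from limma for the 91 tested members, ordered within each complex, with the median of each complex as a red line and the range from the 5th to the 95th percentile of all 14317 tested loci in grey (-0.46 to 0.29). The 4 members named in the plot have an unadjusted p under 0.05, and the complex medians lie between 0.02 and 0.05.

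Complex by complex, the medians stayed near 0. They were 0.02 over 36 tested genes of complex I, 0.02 over its 8 assembly factors, 0.05 over the 4 genes of complex II, 0.03 over the 10 of complex III with cytochrome c, 0.03 over 16 of complex IV and 0.03 over 17 of ATP synthase. The summed covered length of complex I was 155708, 117258 and 143136 bp in the edKO hearts and 148426, 153803 and 145280 bp in the WT hearts. That of ATP synthase was 91548, 66273 and 78477 bp in the edKO hearts and 80118, 81569 and 79742 bp in the WT hearts. In both sums edKO 1 was the highest and edKO 3 the lowest heart, and the WT hearts lay between them. Gene by gene this held only in part. The lowest uncentred length was that of edKO 3 at 70 of the 92 members with a region, and the highest that of edKO 1 at 47. WT 1, 3 and 4 were highest at 10, 13 and 15 members and lowest at 2, 0 and 14. The list of edKO 3 also covered the least sequence as a whole, whereas that of edKO 1 did not cover the most. After centring per heart, the median SD between hearts was 0.12 in edKO and 0.13 in WT over the members on the log2 scale.

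**Figure D3:**
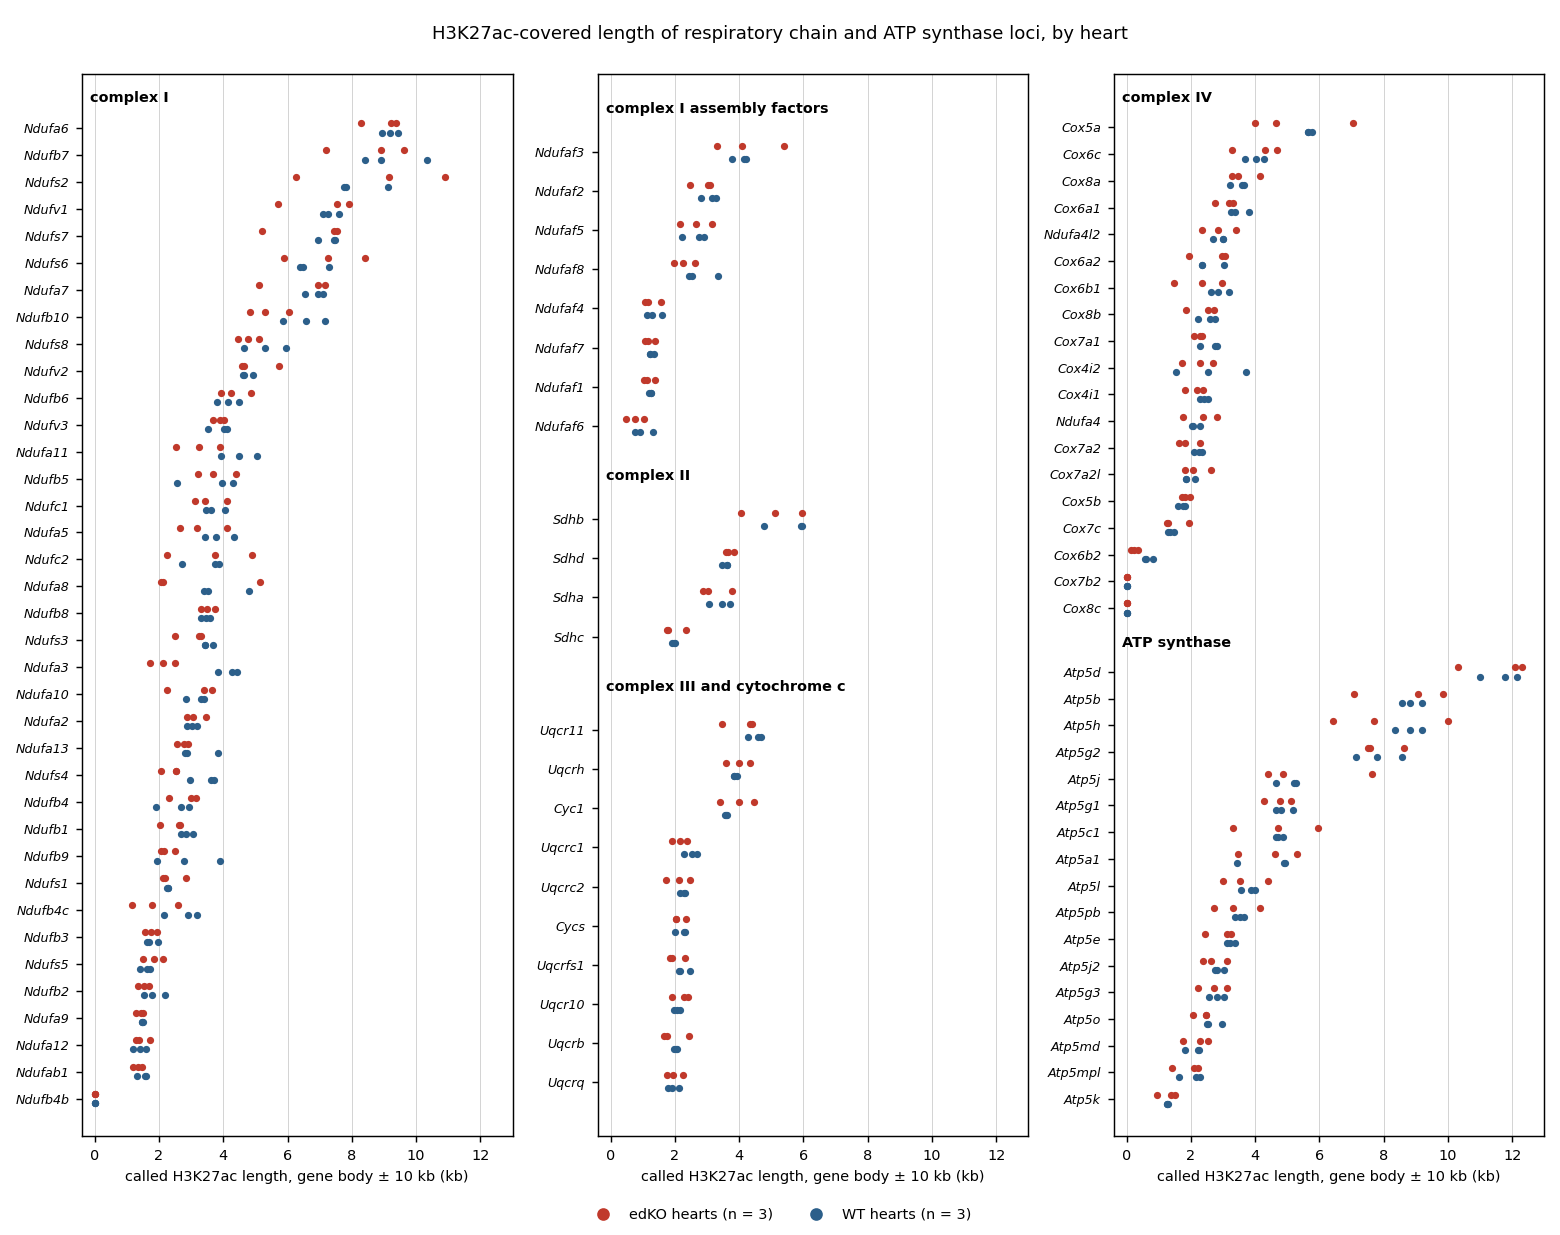
H3K27ac-covered length in kb per locus (the gene and its 10 kb flanks), before centring, for each of the 95 members in the 3 edKO hearts (red, upper row of each pair) and the 3 WT hearts (blue, lower row), sorted by mean within each complex. Atp5d, Ndufa6 and Cox5a head their complexes, the 2 genotypes overlap at most members, and Ndufb4b, Cox7b2 and Cox8c sit at 0.

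Among complex I genes, Ndufa6, an accessory subunit, had the longest covered length, at 9368, 8279 and 9206 bp in the edKO hearts and 9177, 8946 and 9436 bp in the WT hearts. Its difference was 0.05 ± 0.11 (SE), and the genotypes overlapped. Ndufs5, an accessory subunit, had 2120, 1502 and 1847 bp in the edKO hearts and 1723, 1618 and 1406 bp in the WT hearts. The uncentred lengths overlap, and centring sets the edKO hearts above the WT hearts, with a difference of 0.26 ± 0.11 and an adjusted p of 0.72 in limma.

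Ndufa3, an accessory subunit of complex I on chromosome 7 (3617347 to 3620165), had the lowest p of the members. Its locus had 2509, 1705 and 2129 bp in the edKO hearts and 3822, 4270 and 4417 bp in the WT hearts, so that every edKO heart lay below every WT heart. The log2 difference was -0.84 ± 0.12 (SE), with an unadjusted p of 0.000123 and an adjusted p of 0.0677 in limma. The regions at its own gene ends did not follow this. They measured 1299, 777 and 925 bp in the edKO hearts and 1151, 1158 and 1155 bp in the WT hearts, with overlap and a difference of -0.17 ± 0.12 (adjusted p = 0.998 in limma).

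The gap at Ndufa3 lay mostly in a region at the far end of the neighbouring gene Oscar, which encodes a collagen-binding receptor of osteoclasts and myeloid cells. That region (chromosome 7, 3608170 to 3610027) was called in none of the edKO hearts and spanned 1440, 1858 and 1437 bp in the WT hearts. The Oscar locus itself was among the 15 called, with a log2 difference of -1.36 ± 0.17 and an adjusted p of 0.0431 in limma. With the gene body alone as the locus, the difference at Ndufa3 was -0.03 (adjusted p = 0.964), and with each region given to its nearest gene it was -0.11 (adjusted p = 0.894). Over all alternatives the adjusted p at Ndufa3 lay between 0.0543 and 0.964.

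Ndufs4, a complex I subunit on chromosome 13 (114287795 to 114388094) whose loss causes complex I deficiency in people and mice, was named after its values were seen. Its locus had 2529, 2065 and 2538 bp in the edKO hearts and 3622, 3701 and 2973 bp in the WT hearts, without overlap. The log2 difference was -0.41 ± 0.10 (SE), with an unadjusted p of 0.00402 and an adjusted p of 0.317 in limma. No other protein-coding gene lies within 10 kb. The start-site region had 1215, 1054 and 1151 bp in the edKO hearts and 1496, 1039 and 938 bp in the WT hearts, which overlap. The region at the far, 3′ end had 1314, 1011 and 1387 bp in the edKO hearts and 2126, 2372 and 2035 bp in the WT hearts, which do not.

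Ndufa11, an accessory subunit also named after its values were seen, showed a like arrangement. Its locus had 3237, 2536 and 3893 bp in the edKO hearts and 3944, 4491 and 5061 bp in the WT hearts (difference -0.38 ± 0.15, adjusted p = 0.716 in limma). The lengths do not overlap as measured, and overlap after centring. A region between genes beyond its 3′ end (chromosome 17, 56727065 to 56729264) had 895, 889 and 1535 bp in the edKO hearts and 1850, 2109 and 2070 bp in the WT hearts. Its gene-end regions had 2342, 1647 and 2358 bp in the edKO hearts and 2094, 2382 and 2075 bp in the WT hearts, with overlap. At Ndufa3, Ndufs4 and Ndufa11 the uncentred lengths separate away from the start site and overlap at it. These 3 are the members lower at an unadjusted p under 0.05 in limma, so a gap somewhere in each follows from that choice. For gene-end against other regions the adjusted p was 0.275 at Ndufa3 and 0.917 at Ndufa11 in limma. Ndufs4 was not tested for that difference.

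The whole promoter windows of Ndufa3 and Ndufs4 are shown because their start-site regions overlapped between the genotypes while the rest of the locus did not. Each holds 1 match to the YY1 letters, in capitals, just downstream of the start site, and no NRF1, ETS, ERR or DR1 match. They lie at chr7:3617123-3617422 (plus strand) and chr13:114388045-114388344 (minus strand) of GRCm38.p6.
Ndufa3: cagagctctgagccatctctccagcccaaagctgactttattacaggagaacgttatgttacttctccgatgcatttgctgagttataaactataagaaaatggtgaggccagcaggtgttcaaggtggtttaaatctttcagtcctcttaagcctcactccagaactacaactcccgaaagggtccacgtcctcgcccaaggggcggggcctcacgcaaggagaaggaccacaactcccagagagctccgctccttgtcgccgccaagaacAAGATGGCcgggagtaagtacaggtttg
Ndufs4: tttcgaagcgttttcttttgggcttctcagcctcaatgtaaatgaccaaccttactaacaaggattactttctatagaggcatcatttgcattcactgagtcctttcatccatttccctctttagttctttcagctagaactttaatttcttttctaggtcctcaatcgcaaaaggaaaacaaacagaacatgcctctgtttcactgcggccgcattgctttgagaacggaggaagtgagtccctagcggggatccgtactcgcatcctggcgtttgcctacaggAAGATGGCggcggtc

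**Figure D4:**
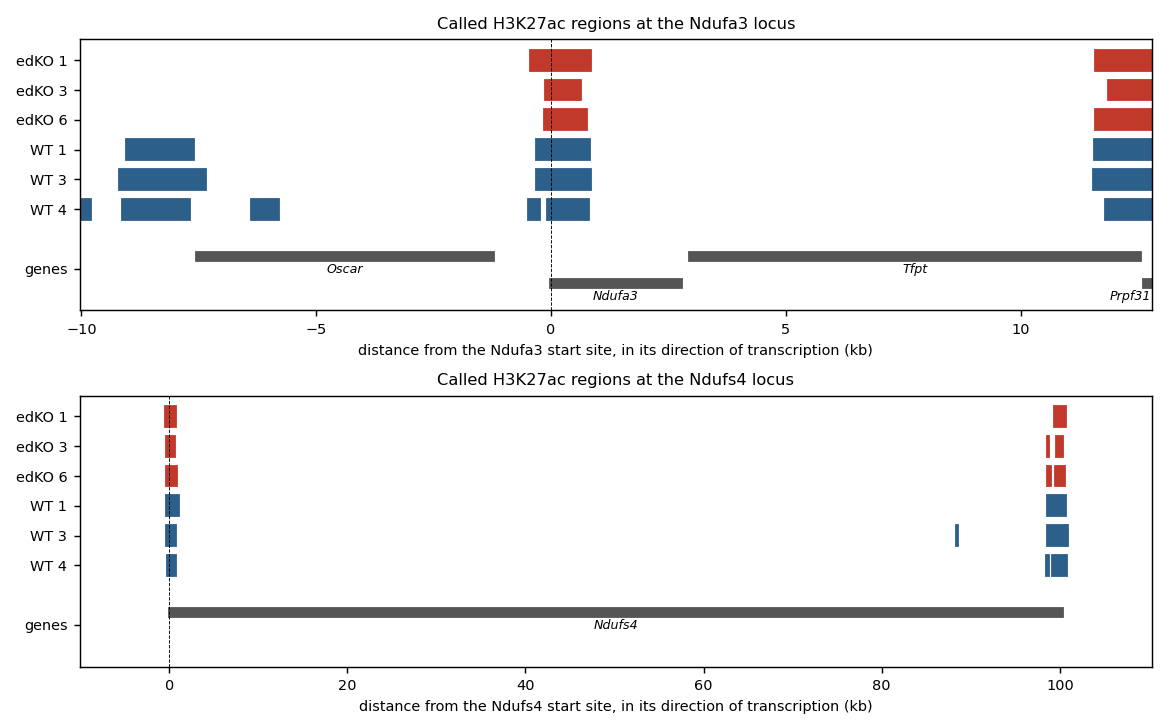
Called H3K27ac regions of each heart at the Ndufa3 locus (upper panel) and the Ndufs4 locus (lower panel), as distance in kb from the gene's start site (dashed line) in its direction of transcription, with edKO hearts in red above WT hearts in blue and gene bodies in grey. The start-site block is present in all 6 hearts at both genes, whereas the block before Oscar is drawn in the 3 WT hearts alone and the block at the 3′ end of Ndufs4 is longer in each WT heart.

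The 8 complex I assembly factors, which build the complex without staying in it, had short covered lengths. Ndufaf3 had the longest, at 5394, 3319 and 4099 bp in the edKO hearts and 3785, 4211 and 4139 bp in the WT hearts (difference 0.14 ± 0.12). Ndufaf6 had the shortest, at 1049, 475 and 763 bp in the edKO hearts and 928, 1314 and 748 bp in the WT hearts (difference -0.25 ± 0.22). Both overlapped between genotypes. With each region given to its nearest gene alone, the difference at Ndufaf3 was 2.45 (adjusted p = 0.839 in limma).

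Complex II, which is also the succinate dehydrogenase of the tricarboxylic acid cycle, has 4 subunits, all nuclear. Sdhb had the most covered length, at 5127, 4042 and 5949 bp in the edKO hearts and 4780, 5925 and 5961 bp in the WT hearts (difference -0.06 ± 0.14). Sdhc, a membrane anchor, had the least, at 2347, 1746 and 1794 bp in the edKO hearts and 1987, 1968 and 1895 bp in the WT hearts (0.08 ± 0.12). The differences at Sdha, the flavoprotein subunit, and Sdhd, the other membrane anchor, were 0.01 ± 0.11 and 0.14 ± 0.12, and the genotypes overlapped at all 4 genes.

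In complex III and cytochrome c, no difference exceeded 0.21. Cyc1, the cytochrome c1 subunit, had 4457, 3390 and 3998 bp in the edKO hearts and 3629, 3558 and 3601 bp in the WT hearts. After centring the edKO hearts lay above the WT hearts, with a difference of 0.21 ± 0.10 and an adjusted p of 0.797 in limma. Its gene-end regions had 1657, 1342 and 1538 bp in the edKO hearts and 1544, 1488 and 1536 bp in the WT hearts, a difference of 0.01 ± 0.08. Cycs, which encodes cytochrome c itself, the mobile carrier, had 2335, 2044 and 2028 bp in the edKO hearts and 2321, 2284 and 1990 bp in the WT hearts (0.05 ± 0.12). Uqcr11 had the longest covered length, at 4347, 3462 and 4387 bp in the edKO hearts and 4259, 4597 and 4667 bp in the WT hearts. Uqcrq had the shortest, at 2263, 1757 and 1941 bp in the edKO hearts and 1773, 2122 and 1901 bp in the WT hearts. Uqcrc1, a core subunit, had the lowest p below 0, with a difference of -0.12 ± 0.14 (adjusted p = 0.885 in limma).

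The muscle isoforms of complex IV all carried the mark in the 6 hearts. Cox6a2 had 2962, 1948 and 3071 bp in the edKO hearts and 3019, 2357 and 2353 bp in the WT hearts (difference 0.11 ± 0.14). Cox7a1 had 2271, 2107 and 2332 bp in the edKO hearts and 2295, 2809 and 2763 bp in the WT hearts (-0.12 ± 0.14). Cox8b had 2543, 1850 and 2728 bp in the edKO hearts and 2211, 2582 and 2753 bp in the WT hearts (0.00 ± 0.14). All 3 overlapped between the genotypes, and none was called. With each region given to its nearest gene alone, the difference at Cox6a2 was 1.82 (adjusted p = 0.825 in limma).

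Their widely expressed counterparts were not called either. Cox6a1 had 3304, 2751 and 3182 bp in the edKO hearts and 3245, 3800 and 3379 bp in the WT hearts (-0.08 ± 0.11). Cox7a2 had 2284, 1809 and 1630 bp in the edKO hearts and 2251, 2337 and 2100 bp in the WT hearts (-0.13 ± 0.14). Cox8a had 4165, 3286 and 3465 bp in the edKO hearts and 3592, 3649 and 3223 bp in the WT hearts (0.14 ± 0.10). Between the members of a pair no test was made. The start-site region of Cox7a1 was 989, 989 and 1102 bp wide in the edKO hearts and 1119, 1036 and 1063 bp in the WT hearts, below that of Cox7a2 in every heart. The start-site region of Cox8b was wider than that of Cox8a in every heart. It was 2204, 1850 and 2453 bp wide in the edKO hearts and 2211, 2307 and 2319 bp in the WT hearts. That of Cox8a was 2159, 1530 and 1557 bp wide in the edKO hearts and 1666, 1855 and 1423 bp in the WT hearts. Over the whole locus Cox8b had a shorter covered length than Cox8a in every heart, where the Cox8a locus includes a region at an end of the neighbouring gene Otub1.

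The other complex IV genes varied more in length than between genotypes. Cox5a had the longest covered length, at 7046, 3984 and 4649 bp in the edKO hearts and 5648, 5636 and 5761 bp in the WT hearts. Its difference was -0.07 ± 0.15, and the wide range of its edKO hearts took in all 3 WT hearts. Cox4i1, the main isoform of subunit 4, had 2378, 1816 and 2203 bp in the edKO hearts and 2299, 2394 and 2545 bp in the WT hearts (-0.08 ± 0.12). Cox4i2, its isoform of lung and hypoxic cells, had 2291, 1712 and 2704 bp in the edKO hearts and 2528, 3703 and 1538 bp in the WT hearts (-0.05 ± 0.24), the widest spread of the pair, and with regions of −log10 q of at least 5 alone the difference was -1.38 (adjusted p = 0.861 in limma). Cox6b1 had the lowest p below 0, with a difference of -0.29 ± 0.17, and Cox7a2l, which promotes supercomplexes, the lowest above 0, with 0.22 ± 0.11 (adjusted p = 0.847 and 0.80 in limma). The differences at Ndufa4 and Ndufa4l2 were 0.18 ± 0.11 and 0.06 ± 0.12.

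ATP synthase had the member with the most covered length of all 95. Atp5d, the delta subunit of the rotor, had 12318, 10318 and 12082 bp in the edKO hearts and 10995, 11784 and 12134 bp in the WT hearts (0.07 ± 0.11). Much of it is a long region that runs from the 3′ side of Atp5d over the neighbouring gene Midn. Atp5k, a small membrane subunit, had the least, at 1505, 957 and 1394 bp in the edKO hearts and 1294, 1264 and 1259 bp in the WT hearts (0.08 ± 0.12). Atp5j had 7629, 4401 and 4866 bp in the edKO hearts and 5262, 5200 and 4643 bp in the WT hearts (0.20 ± 0.15), where edKO 1 alone exceeds the WT hearts. With each region given to its nearest gene alone, the sign at Atp5j turned (-0.49, adjusted p = 0.88 in limma). Atp5o, in the peripheral stalk, had 2463, 2067 and 2482 bp in the edKO hearts and 2965, 2545 and 2487 bp in the WT hearts (-0.09 ± 0.11). The Atp5o lengths do not overlap as measured, and overlap after centring. All 17 differences lay between -0.09 and 0.20, and after centring no ATP synthase gene separated the genotypes.

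The mark of these genes is concentrated at their own ends. Regions touching 1 kb on each side of a gene end held 64.5, 63.0 and 61.1% of the members' covered length in edKO 1, 3 and 6 and 62.1, 61.2 and 59.3% in WT 1, 3 and 4. Over all loci the share was 39.1, 39.9 and 36.8% in the edKO hearts and 36.7, 36.6 and 36.0% in the WT hearts. At 24 of the 91 tested members every called base lay in gene-end regions. Such a region is not always the member's alone, since another protein-coding gene lies within 1 kb of 57 members (60%), against 31.6% of all. The regions at the ends of Uqcrh and Atp5j, for example, also lay at ends of Lrrc41 and Gabpa. By complex, complex III with cytochrome c had the highest share, at 81.4, 82.7 and 81.6% in the edKO hearts and 83.0, 81.3 and 81.6% in the WT hearts. Complex I had the lowest, at 57.2, 51.9 and 49.8% in the edKO hearts and 50.7, 51.2 and 49.3% in the WT hearts. The genotypes overlapped in both shares. In summed length, the other regions of complex I had 66657, 56453 and 71810 bp in the edKO hearts and 73188, 74993 and 73626 bp in the WT hearts before centring, without overlap, and no test was made of a sum. The separation of these sums depends on the Ndufa3 locus, whose window holds the region at the end of Oscar. Its other regions had 1210, 928 and 1204 bp in the edKO hearts and 2671, 3112 and 3262 bp in the WT hearts. The gene-end regions of complex I had 89051, 60805 and 71326 bp in the edKO hearts and 75238, 78810 and 71654 bp in the WT hearts, with overlap. The total per locus was ordinary, since the members' median length of 2976 bp stood at the 49.7th percentile of all tested loci.

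Gene-end and other regions were then tested apart. For gene-end regions, 0 of 89 members were called in either direction (limma, adjusted p under 0.05), against 0.0257% of 11652 loci lower and 0% higher. For the other regions, 0 of 51 members were called, against 0.0694% of 10089 loci lower and 0% higher. For the difference between both classes, 0 of 49 members were called, against 0.0133% of 7513 loci in each direction. At an unadjusted p under 0.05, Ndufs4 was lower and Ndufs5 higher at gene ends, which makes 1 each, and 2.70% of all loci were lower and 1.97% higher there. Elsewhere 2 were lower (Ndufa3, Ndufa11) and 2 higher (Ndufs8, Cyc1), against 4.61% of all loci lower and 1.88% higher. In the difference 0 were lower and 2 higher (Ndufa3, Ndufa11), against 1.96% of all loci lower and 3.27% higher. The median log2 difference over the members was 0.01 at gene ends, 0.03 elsewhere and -0.01 for gene ends minus elsewhere, where all loci had 0.02, 0.03 and -0.02.

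**Figure D5:**
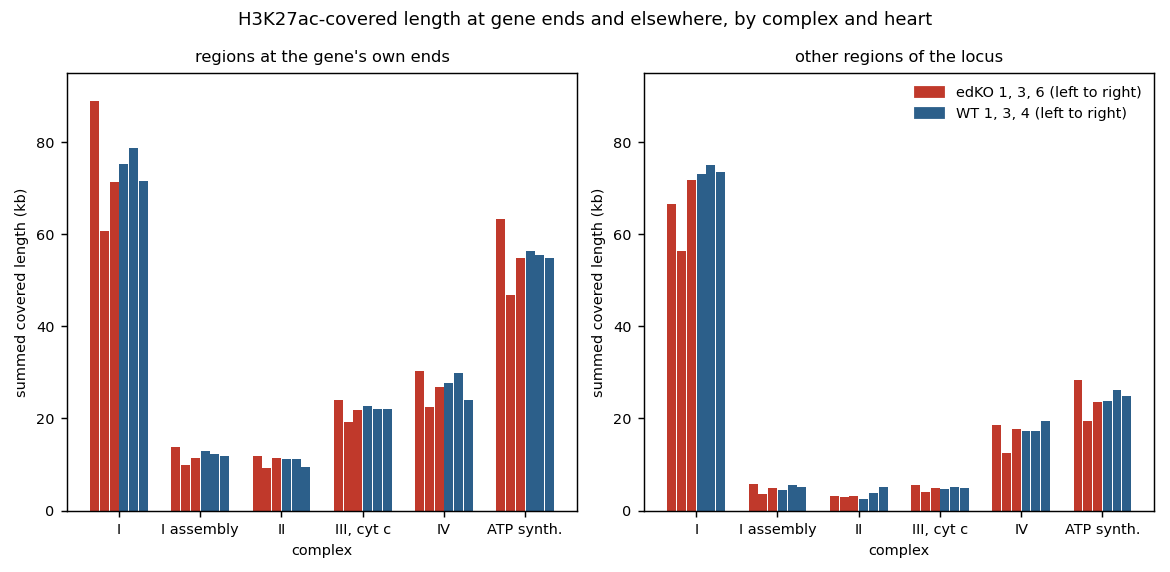
Summed covered length in kb of the members of each complex, split into regions that touch the gene's own ends (left) and all other regions of the locus (right), with 1 bar per heart and the edKO hearts (red) left of the WT hearts (blue). The WT bars overlap the range of the edKO bars in every panel group except the other regions of complex I, where all 3 WT bars are higher. That exception depends on the Ndufa3 locus, whose window holds the region at the end of Oscar. The lowest bar is edKO 3 in every panel group except the other regions of complex II, where it is WT 1.

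Which class a region falls in can turn on whether neighbouring regions are joined. At Ndufs8, an iron-sulphur subunit of complex I named after its values were seen, gene-end regions held 2375, 1905 and 1632 bp in the edKO hearts and 1799, 5956 and 5297 bp in the WT hearts. In WT 3 and WT 4 a longer joined region touched the gene end, while the whole locus had 5102, 4759 and 4460 bp in the edKO hearts and 4647, 5956 and 5297 bp in the WT hearts. The locus difference was -0.05 ± 0.14.

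Joined over the 6 hearts, 271 regions lay at 92 members, and 167 of them (61.6%) were called in all 6 hearts, against 38.4% of 60793 regions at all protein-coding loci. Regions at the member's own end were the steadiest, with 102 of 114 called in all 6 hearts. At ends of neighbouring genes 30 of 42 were, inside neighbouring genes 18 of 48, between genes 11 of 25, and inside the member but away from its ends 6 of 42. Another protein-coding gene lies within 10 kb of 83 members (87.4%), against 61.9% of all protein-coding genes, and within 1 kb of 57 members (60%), against 31.6% of all. No member has another member within 10 kb.

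No region was called in all 3 edKO hearts and no WT heart at the members, where 0.0609% of 60793 regions at all protein-coding loci were. Called in all 3 WT hearts and no edKO heart were 2 of 271, against 1.02% of all. One is the region at the end of Oscar described above. The other lies in the Ndufb10 window inside a neighbouring gene (chromosome 17, 24728930 to 24730058) and covered 976, 937 and 419 bp in the WT hearts. Neither touches an end of the member itself. Ndufb10, named after its values were seen, had 6058, 4831 and 5305 bp over the whole locus in the edKO hearts and 7154, 6561 and 5873 bp in the WT hearts, with a difference of -0.18 ± 0.10 (adjusted p = 0.837 in limma).

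Genes that serve the respiratory chain without being part of it had no call either. Over all loci 0.105% were called lower and 0% higher, so a count of 0 is not a result about these lists. Of all loci 41.6% were below 0, and at an unadjusted p under 0.05 in limma 4.63% were lower and 1.98% higher. Of 40 other assembly factors for complexes I to IV and ATP synthase, 0 were called, 9 were below 0 and the median log2 difference was 0.06. At an unadjusted p under 0.05, 0 were lower and 1 was higher, Cox11, a copper chaperone of complex IV. It had 2940, 1783 and 2468 bp in the edKO hearts and 2040, 1934 and 1805 bp in the WT hearts (0.35 ± 0.11, adjusted p = 0.564 in limma). Of 17 genes of the tricarboxylic acid cycle and the pyruvate dehydrogenase complex that feeds it, 0 were called, 5 were below 0 and the median was 0.05. At an unadjusted p under 0.05, 0 were lower and 1 was higher, Pdhx, which holds the pyruvate dehydrogenase complex together (0.34 ± 0.12, adjusted p = 0.622 in limma).

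Of 25 regulators of respiratory chain and mitochondrial transcription, 24 were tested and 0 called, with 12 below 0, a median of 0.00, and 3 lower and 1 higher at an unadjusted p under 0.05. Over all loci 41.6% were below 0, and 4.63% were lower and 1.98% higher at that p. Those 4 were Polrmt, the mitochondrial RNA polymerase, Ppargc1b, a coactivator of mitochondrial genes, Polg, the mitochondrial DNA polymerase, and Sp1. The 4 are named for this count. The list also holds Rxra and Rxrb, the genes deleted in edKO cardiomyocytes, with differences of -0.057 ± 0.256 and -0.001 ± 0.104. Ppara and Ppard, partners of RXR, are in it too, at -0.13 ± 0.18 and -0.37 ± 0.17. Polrmt had 864, 488 and 729 bp in the edKO hearts and 1155, 1370 and 1577 bp in the WT hearts, without overlap (-0.74 ± 0.19, adjusted p = 0.339 in limma). Ppargc1b had 30738, 22327 and 33347 bp in the edKO hearts and 37747, 36875 and 36268 bp in the WT hearts, also without overlap (-0.29 ± 0.10, adjusted p = 0.582 in limma). Polg had 1814, 1314 and 1736 bp in the edKO hearts and 2239, 2049 and 2050 bp in the WT hearts, without overlap (-0.27 ± 0.11, adjusted p = 0.711 in limma). Before centring, Polrmt, Ppargc1b and Polg lay below every WT heart in each edKO heart. The list of edKO 3 covered the least sequence as a whole. After centring, 5.76% of all loci had every edKO heart below every WT heart, and that share was not counted for the regulators. Sp1, a general promoter factor, had the opposite sign. It had 6513, 4460 and 6136 bp in the edKO hearts and 4712, 5093 and 4905 bp in the WT hearts (0.28 ± 0.10, adjusted p = 0.636 in limma). Nrf1 had 2473, 2290 and 2185 bp in the edKO hearts and 2493, 2626 and 2310 bp in the WT hearts (0.00 ± 0.13). Ppargc1a, the coactivator that drives mitochondrial biogenesis in heart, had 73188, 48363 and 62072 bp in the edKO hearts and 69357, 65967 and 57649 bp in the WT hearts, with overlap and a difference of 0.00 ± 0.09. All genes named from these lists were picked after their values were seen.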

How the data were processed

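H3K27ac was mapped by ChIP-seq in 3 edKO and 3 WT hearts, and the input libraries were not analysed here. Reads were handled with MACS2, BWA, cutadapt and SAMtools, whose versions are not stated, on mm10 (GRCm38), per the submitters' processing notes. Peak calling settings and controls were not given in the sources used here. For each heart the authors deposited 1 narrowPeak list. Its signal column is the fold enrichment of a peak, a ratio to background, and its deposited significance columns are −log10 p-values and −log10 q-values. The deposited score column repeats the −log10 q-value in whole steps and was not used. The deposited −log10 q-values served only to rank or filter regions within a list, and the fold column was not used. Entries with several summits in 1 region were joined before lengths were summed.

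Covered bp per locus were taken as log2(bp + 200), centred per heart on the mean over loci covered in all 6 hearts, and tested with limma 3.58.1 (trend, robust; R 4.3.3, Python 3.11.15) for genotype alone, with Benjamini-Hochberg adjustment at 0.05 over loci with a mean of at least 500 bp. The test was tried on simulated data with added differences larger than the estimate at any member. It therefore does not show how the test does at differences as small as theirs. Differences on this scale understate changes at loci with little covered length. Depth per heart is unknown, so no counting intervals are given. Gene extents and promoters came from RefSeq (GRCm38.p6), and promoters of 76 of 95 members matched by gene ID. Where a gene has several start sites, the one called in most hearts was used.

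Members and lists were chosen with earlier results of these data known. The named genes are the complex II, cytochrome c and complex IV isoform genes, in each complex those with the longest and shortest covered length and the lowest p in each direction, and those without a called base. Other pseudocounts, scalings, filters, locus widths, stricter lists, a replicate block and leaving out each heart were tried as alternatives.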

Additional observations from a re-analysis of the deposited data

How the results depend on the processing

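No member passed the threshold under any alternative run, for the whole locus (18 alternatives), gene-end regions, other regions or their difference (17 each). The number of all loci called, 15, became 7 with flanks of 2 kb, 9 with regions of −log10 q of at least 5, 6 with lists of equal length, 8 with each region given to its nearest gene, and 0 to 9 when a single heart was left out. Leaving out edKO 1, 3 or 6 gave 8, 4 or 9 loci, and leaving out WT 1, 3 or 4 gave 3, 0 or 1. The members' median log2 difference, 0.02, was -0.064 without centring, which moves the median of all loci to -0.05, and ran from -0.01 to 0.06 without a single heart. The gene-end median (0.01) ran from -0.01 to 0.04, the median of other regions (0.03) from -0.02 to 0.07, and that of gene ends minus other regions (-0.01) from -0.03 to 0.07 without a single heart. Without centring the medians were -0.10 for other regions and 0.0938 for gene ends minus other regions. The cause of these shifts was not tested.

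Hearts 1 and 3 of both genotypes share only a number: their deviations correlated at 0.18 and 0.03, and no label pairs them. A fit with the replicate block called 90 loci and no member, with member medians of 0.0872 for the whole locus and 0.0544 at gene ends. Of 31 tested members named by the rule, 15 kept their sign in all alternatives run and 16 did not, none called in any. The number of members with a gene-end region in all 6 hearts stayed at 87 to 88. Unknown depth limits what a missing region means, and 3 hearts a genotype limit the size of difference that can be called.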
